A study of Mus musculus with 7 samples.

Results

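The genes described here encode the surfactant proteins and other products of the alveolar type 2 cell: Sftpa1, Sftpb, Sftpc, Sftpd, Abca3, Lamp3, Lpcat1, Napsa, Slc34a2 and Muc1. All probe sets that the platform annotation assigns to exactly 1 of these 10 genes were taken, which gave 18 of the 45037 probe sets that are not controls and covered 9 of the 10 genes. Lamp3, a membrane protein of lysosomes and lamellar bodies, is annotated only on 1 probe set that also names Ppid, so no value was taken for it. Levels are log2 units on Affymetrix Mouse Genome 430 2.0 arrays hybridised with total RNA of left lungs of 8-week-old mice, 1 array per mouse. The KO group was 3 mice with a Gata5 deletion and the WT group 4 wild-type mice, called biological replicates in the labels. The strain, the sex, the deleted part of Gata5 and whether the deletion was limited to any cell type are not stated in the labels, and neither group is labelled with a treatment. The whole left lung was used, so fewer cells of a type and less RNA per cell cannot be told apart in any of the values.

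Alveolar type 2 cells make pulmonary surfactant, a film of lipid and protein that lowers surface tension at the air-liquid interface, and they are the progenitors of type 1 cells. Surfactant lipid, mainly dipalmitoylphosphatidylcholine, is stored with the hydrophobic proteins SP-B and SP-C in lamellar bodies and secreted into the airspace. SP-A and SP-D are collectins, soluble lectins that bind microbes and help to regulate surfactant turnover. In cultured cells and in mice the surfactant genes are driven by factors such as Nkx2-1, Foxa2 and Cebpa, and Gata6 is the GATA factor best known in this epithelium.

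The tissue label was borne out by the levels of these genes. The brightest Sftpc probe set had a mean of 14.10 over the 7 arrays, at the 99.98th percentile of all probe sets, and those of Sftpa1, Slc34a2, Sftpd, Abca3 and Lpcat1 were all above the 98th percentile. Gata5 itself was dim. At probe set 1450126_at it read 4.98, 4.71 and 5.15 in KO lungs, against 5.32, 5.53, 5.85 and 5.47 in WT lungs (log2 change -0.60, limma adjusted p = 0.0336). At 1450125_at it averaged 4.68 ± 0.19 in KO lungs, against 4.94 ± 0.06 in WT lungs (SD, n = 3 and 4, log2 change -0.26, adjusted p = 0.0993). Whether either probe set lies in the deleted part is not known here, so these values are a limited check of the genotype labels. Median levels of the arrays lay between 6.10 and 6.15. WT replicate 4 stood apart in sex-linked transcripts, with Eif2s3y at 3.71 and the brightest Xist probe set at 12.72, against 9.30 to 9.68 and 6.31 to 6.48 on the other 6 arrays. Differences between control probe sets at the 3′ end and further upstream were larger on KO arrays: 4.74, 5.39 and 4.76 for beta-actin 3′ minus 5′, against 4.31, 3.88, 4.27 and 3.94 on WT arrays (two-sided exact permutation p = 0.0286, and 35 splits allow none smaller). The 3′ minus middle differences were likewise larger, with a mean of 3.02 ± 0.28 in KO against 2.42 ± 0.14 in WT for beta-actin and of 4.01 ± 0.26 in KO against 3.47 ± 0.16 in WT for Gapdh (SD, n = 3 KO and 4 WT; exact permutation p = 0.0286 each).

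KO lungs were compared with WT lungs at each probe set, the contrast of genotypes that the labels give. Muc1, Lpcat1 at 3 of its 5 probe sets and Abca3 at 1 of its 3 probe sets were lower in KO lungs, by 1.30-fold to 2.54-fold. No probe set of a surfactant protein gene passed in either direction in the fit over all probe sets, although the Sftpb estimate, -0.74, was below 3 of the 5 that passed. Without probe sets under the 40th percentile of level, the dimmer Sftpc probe set passed as higher. Of the 18 probe sets, 5 fell, 0 rose and 13 did not pass at limma adjusted p under 0.05 over all 45037 probe sets, where 6.37% fell and 3.53% rose. The groups did not overlap at 11 of the 18, 9 lower and 2 higher in KO, against 23.4% of all probe sets, 11.7% lower and 11.7% higher. The median log2 change was -0.15 over the 18 probe sets and 0.04 over all probe sets. At the brightest probe set of each gene 8 of the 9 estimates were below 0, with a median of -0.21 against 0.04 over the brightest probe sets of all 18193 genes, and 2 of the 9 passed. The groups did not overlap at 6 of those 9, all lower in KO, against 25.3% of the brightest probe sets of all genes, 13% lower and 12.3% higher. Estimates ranged from -1.34 at a Lpcat1 probe set to 0.62 at a Sftpc probe set.

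**Figure D1:**
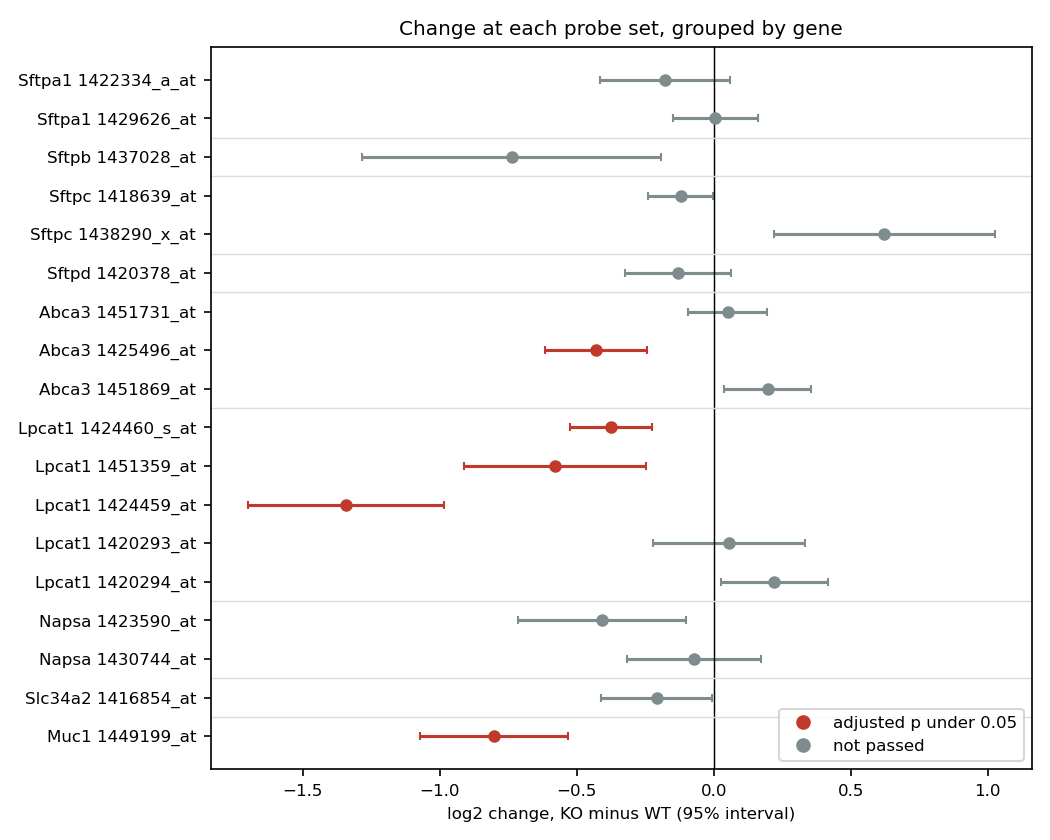
Log2 change, KO minus WT, at each of the 18 probe sets, grouped by gene and ordered within a gene by level. Points are limma estimates with 95% intervals, in red where the adjusted p is under 0.05. The 5 red points lie left of 0. Probe sets of Sftpa1, Sftpc, Abca3 and Lpcat1 lie on both sides of it, although the higher Sftpa1 estimate is only 0.0058.

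Sftpb, whose product SP-B is needed for lamellar bodies and for a working surfactant film, had the lowest estimate among the surfactant protein genes. Its probe set 1437028_at read 11.32, 10.15 and 11.08 in KO lungs, against 11.54, 11.72, 11.51 and 11.58 in WT lungs. All 3 KO lungs were below all 4 WT lungs, but KO replicate 2 was far below the other KO arrays, and the SD was 0.62 in KO and 0.09 in WT. The log2 change of -0.74 (95% interval -1.28 to -0.19) did not pass (adjusted p = 0.0869). It passed when KO replicate 2 was left out, with a change of -0.39 (adjusted p = 0.0459), and when KO replicate 1 was left out, with a change of -0.97 (adjusted p = 0.0473). KO replicate 2 was also the array with the largest beta-actin 3′ minus 5′ difference, 5.39. The Sftpb change was 0.29 with that difference in the fit, -0.97 when beta-actin 3′ minus middle was used instead and 0.14 for Gapdh, and passed with none of the 3.

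Sftpc, which encodes the type 2 cell-restricted protein SP-C, was measured by a very bright and a moderate probe set, and their estimates had opposite signs, neither of which passed. The bright 1418639_at read 14.03, 14.05 and 14.00 in KO lungs, against 14.12, 14.10, 14.17 and 14.20 in WT lungs. The groups did not overlap, yet the gap was small, with a log2 change of -0.12 (95% interval -0.24 to -0.002, adjusted p = 0.165). At 1438290_x_at the values were 6.65, 7.23 and 6.52 in KO lungs, against 6.32, 6.04, 6.39 and 5.96 in WT lungs. All KO arrays were above all WT arrays there, with a log2 change of 0.62 (95% interval 0.22 to 1.03, adjusted p = 0.0603). The suffix _x_at marks a probe set with probes that can match other sequences. Its change was -0.21 once beta-actin 3′ minus 5′ entered the fit, 0.81 with beta-actin 3′ minus middle and 0.052 with Gapdh, and passed with none of them. It passed as higher in KO when probe sets under the 40th percentile of level were left out (adjusted p = 0.0438).

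The collectin genes did not pass. At 1422334_a_at Sftpa1 read 13.02, 13.12 and 13.07 in KO lungs, against 13.08, 13.14, 13.24 and 13.53 in WT lungs, and at 1429626_at it averaged 13.00 ± 0.05 in KO and 13.00 ± 0.10 in WT lungs (SD, n = 3 and 4). The log2 changes were -0.18 (95% interval -0.41 to 0.06, adjusted p = 0.281) and 0.0058 (-0.15 to 0.16, adjusted p = 0.962). Sftpd read 12.65, 12.70 and 12.69 in KO lungs, against 12.67, 12.82, 12.73 and 13.02 in WT lungs, a log2 change of -0.13 (95% interval -0.32 to 0.06, adjusted p = 0.326). The groups overlapped at all 3 of these collectin probe sets, and WT replicate 4 was the highest array at each. Sftpa1 and Sftpd lie close together on chromosome 14, with 1 protein-coding gene between them in the RefSeq gene table.

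The promoters of Sftpb and Sftpa1 are shown for the words of the factors named above that they hold, as 300 bases from 250 before to 50 after the start site on the + strand (RefSeq, GRCm38.p6, chr6:72304360-72304659 and chr14:41131538-41131837). Capitals mark matches on either strand to the Nkx2-1 words CAAGTG and GCNCTNNAG, to the Foxa words TGTTTAC and TGTTTGC, and to 4 GATA words (AGATAA along with TGATAA, and AGATAG along with TGATAG), and on the + strand to the TATA box TATAAA. A match on the other strand appears as its reverse complement. Promoters of 7 of the 10 genes were matched by symbol, and those of Sftpc, Sftpd and Napsa were not.
Sftpb: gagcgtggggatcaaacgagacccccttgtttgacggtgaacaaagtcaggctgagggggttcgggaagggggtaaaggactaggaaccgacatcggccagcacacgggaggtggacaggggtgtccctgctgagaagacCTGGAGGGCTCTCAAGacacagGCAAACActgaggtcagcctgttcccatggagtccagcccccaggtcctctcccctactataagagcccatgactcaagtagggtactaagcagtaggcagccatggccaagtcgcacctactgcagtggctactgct
Sftpa1: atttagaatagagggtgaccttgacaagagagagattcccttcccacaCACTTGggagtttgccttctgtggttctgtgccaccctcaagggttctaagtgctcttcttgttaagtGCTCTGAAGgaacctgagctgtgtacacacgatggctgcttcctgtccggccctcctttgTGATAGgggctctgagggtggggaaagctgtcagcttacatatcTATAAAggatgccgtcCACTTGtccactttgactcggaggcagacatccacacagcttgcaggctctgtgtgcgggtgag
The Sftpb promoter held GCNCTNNAG on both strands, at positions -110 and -103 from the start site, which overlap each other, and a Foxa word at -88. The Sftpa1 promoter held CAAGTG at -202 and -14, GCNCTNNAG at -134, TGATAG at -74 and a TATA box at -30. Of 32851 promoters of this length, 28.6% held a Nkx2-1 word, 8.48% a Foxa word, 29.8% a GATA word and 8.32% the TATA box. Matches are descriptions of letters, and no binding was measured.

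**Figure D2:**
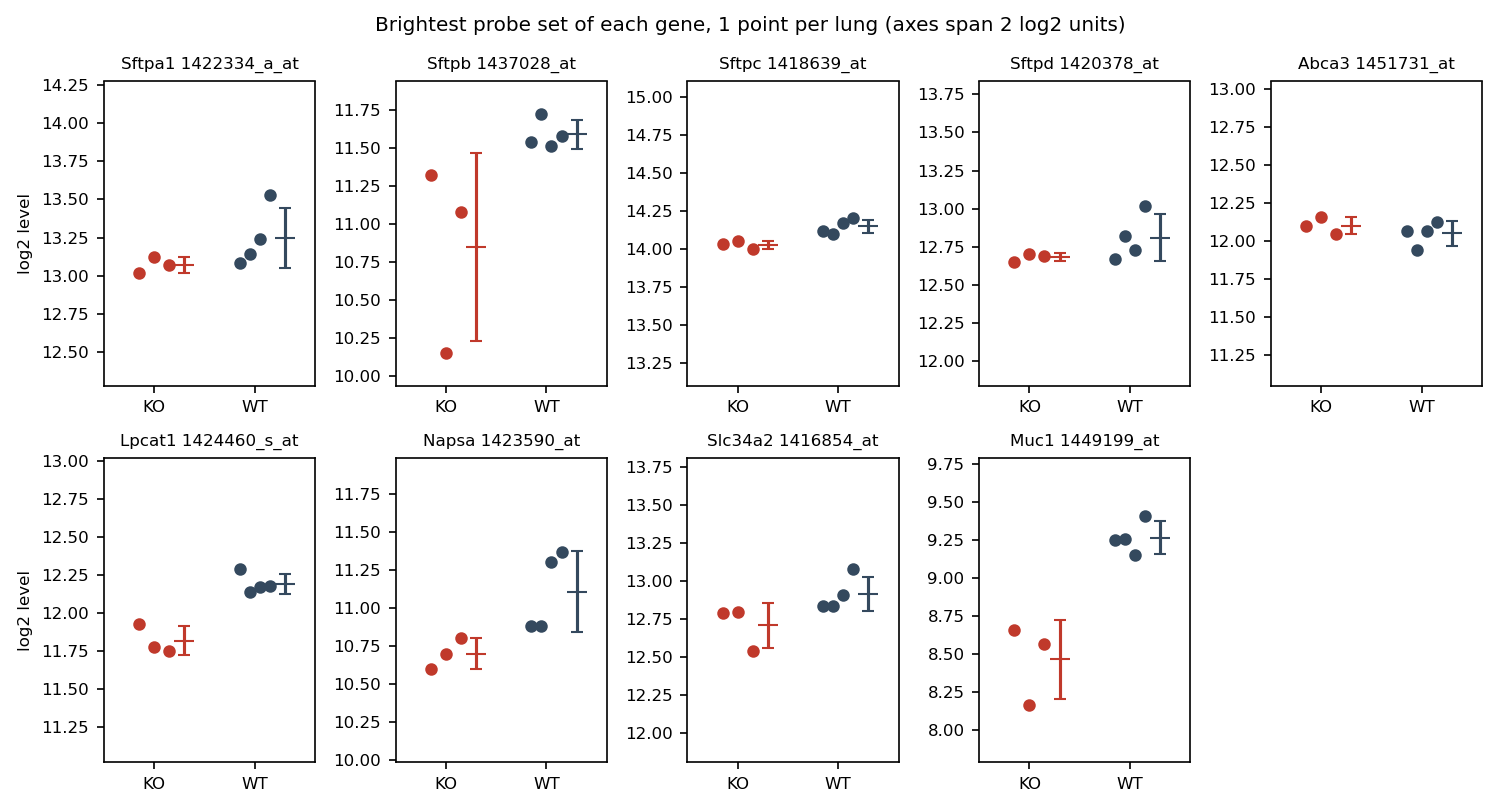
Log2 level of the brightest probe set of each gene, KO left of WT, 1 point per lung, with the mean and SD beside the points and each axis spanning 2 log2 units. Muc1 and Lpcat1 separate the groups by more than their spread, Sftpb is split by the KO array at 10.15, and Sftpc, Sftpa1, Sftpd and Abca3 differ little.

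Genes that act on the proteins and lipids of lamellar bodies gave mixed results. Napsa encodes napsin A, an aspartic protease that takes part in the processing of the SP-B precursor. At its brighter probe set, 1423590_at, it read 10.60, 10.70 and 10.80 in KO lungs, against 10.88, 10.88, 11.30 and 11.37 in WT lungs. The KO lungs were all below the WT lungs, by a log2 change of -0.41 (95% interval -0.71 to -0.10) that did not pass (adjusted p = 0.0917). At 1430744_at the groups overlapped, with 7.42 to 7.50 in KO and 7.32 to 7.82 in WT lungs, and the change was -0.071 (adjusted p = 0.672).

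Abca3 encodes the transporter that carries phospholipid into lamellar bodies. Its bright probe set 1451731_at read 12.10, 12.16 and 12.05 in KO lungs, against 12.07, 11.94, 12.07 and 12.13 in WT lungs, and the groups overlapped (log2 change 0.051, 95% interval -0.09 to 0.19, adjusted p = 0.602). At 1425496_at, which the annotation draws from the same GenBank record, the level fell 1.35-fold to 7.09, 6.79 and 7.0 in KO lungs, against 7.35, 7.40, 7.32 and 7.49 in WT lungs (adjusted p = 0.0173). At 1451869_at the KO lungs, at 7.39, 7.21 and 7.29, lay above the WT lungs, at 7.16, 7.10, 7.16 and 6.98 (log2 change 0.20, adjusted p = 0.107). The 3 probe sets of this gene therefore gave estimates below, near and above 0, of which only the lower one passed. The call at 1425496_at was lost without WT replicate 4 (log2 change -0.40, adjusted p = 0.0510).

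Lpcat1 encodes the acyltransferase that makes saturated phosphatidylcholine for surfactant. At 1424459_at it read 9.18, 8.44 and 8.69 in KO lungs, against 10.24, 10.05, 9.99 and 10.17 in WT lungs. All KO arrays were well below all WT arrays, and the fall was 2.54-fold (log2 change -1.34, SE 0.16, adjusted p = 0.00472), the largest at any of the 18 probe sets. The brightest probe set, 1424460_s_at, read 11.93, 11.78 and 11.75 in KO lungs, against 12.29, 12.14, 12.17 and 12.18 in WT lungs, a fall of 1.30-fold (log2 change -0.37, adjusted p = 0.0138). At 1451359_at it fell 1.5-fold, to 10.32 ± 0.06 in KO lungs, against 10.90 ± 0.30 in WT lungs (SD, n = 3 and 4, adjusted p = 0.0420). These 3 probe sets are drawn from 1 GenBank record, and the groups did not overlap at any of them. The other probe sets, 1420293_at and 1420294_at, are drawn from a second record and overlapped between groups, with 8.05 ± 0.27 in KO and 7.99 ± 0.11 in WT lungs at the first and 4.31 ± 0.18 in KO and 4.09 ± 0.06 in WT lungs at the second (log2 changes 0.055 and 0.22, adjusted p = 0.778 and 0.132). The second of these is dim, at the 16.4th percentile of levels. Leaving out any 1 array kept the calls at 1424459_at and 1424460_s_at, whereas 1451359_at passed in only 2 of 7 such fits, those without WT replicate 2 or 4, and had an adjusted p of up to 0.124 in the others. It was also lost under further quantile normalization (adjusted p = 0.0643), cyclic loess (0.0539) and array weights (0.0702).

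**Figure D3:**
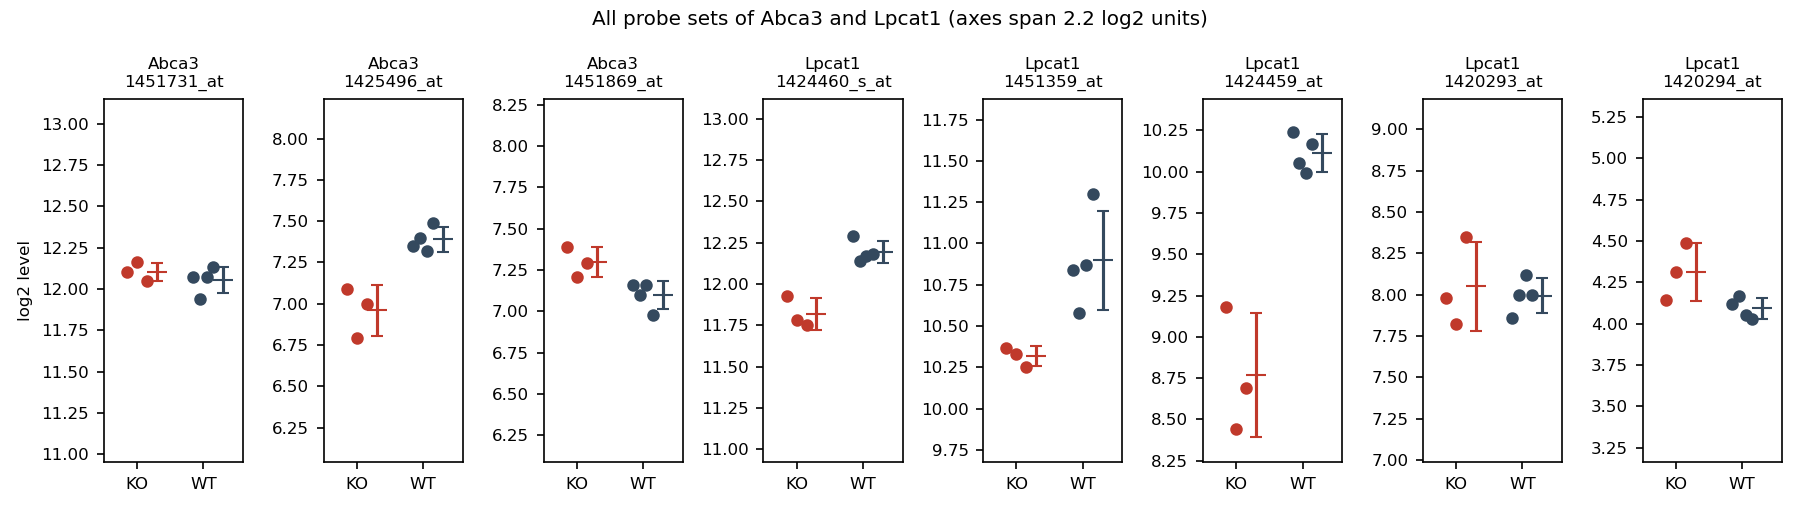
Log2 level at all 3 probe sets of Abca3 and all 5 of Lpcat1, KO left of WT, 1 point per lung, with the mean and SD beside the points and each axis spanning 2.2 log2 units. The first 3 Lpcat1 panels show KO below WT and the last 2 do not, and only the middle Abca3 panel shows KO below WT.

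Muc1 encodes a transmembrane mucin of the apical surface, made by type 2 cells and by other epithelia. Its single probe set 1449199_at read 8.66, 8.17 and 8.57 in KO lungs, against 9.25, 9.26, 9.15 and 9.41 in WT lungs. The groups did not overlap and the level fell 1.74-fold (log2 change -0.80, SE 0.12, 95% interval -1.07 to -0.53, adjusted p = 0.00840). The call was kept whichever array was left out, with changes between -0.90 and -0.65. Slc34a2 encodes the sodium-phosphate cotransporter that takes up phosphate from the alveolar fluid. It read 12.79, 12.80 and 12.54 in KO lungs, against 12.84, 12.84, 12.91 and 13.08 in WT lungs, a log2 change of -0.21 (95% interval -0.41 to -0.01) without overlap that did not pass (adjusted p = 0.162).

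The promoters of Muc1 and Lpcat1, the genes that fell at their brightest probe set, are given in the same way (RefSeq, GRCm38.p6, + strand, chr3:89228806-89229105 and chr13:73466981-73467280), with capitals for the same words.
Muc1: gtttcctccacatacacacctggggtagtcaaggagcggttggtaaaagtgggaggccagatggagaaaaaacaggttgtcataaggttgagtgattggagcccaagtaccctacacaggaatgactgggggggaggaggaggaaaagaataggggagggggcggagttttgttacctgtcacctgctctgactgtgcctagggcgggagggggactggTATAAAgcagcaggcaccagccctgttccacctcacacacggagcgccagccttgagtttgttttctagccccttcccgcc
Lpcat1: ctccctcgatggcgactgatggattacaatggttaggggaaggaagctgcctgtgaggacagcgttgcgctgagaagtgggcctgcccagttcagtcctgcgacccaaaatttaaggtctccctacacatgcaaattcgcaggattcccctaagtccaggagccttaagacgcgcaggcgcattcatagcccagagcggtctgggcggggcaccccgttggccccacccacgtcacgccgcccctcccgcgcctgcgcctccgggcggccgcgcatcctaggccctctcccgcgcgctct
The Muc1 window held the TATA box, at -31, and no other word searched, and the Lpcat1 window held none of them. These letters are not in these windows, which says nothing of sites elsewhere.

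Probe sets of 1 gene were then compared with each other, by the difference between the brightest and each other probe set on every array. Of 9 such pairs in 5 genes, 5 had estimates of opposite sign. Some of these rest on estimates near 0: 0.0058 at Sftpa1 1429626_at, 0.051 at Abca3 1451731_at and 0.055 at Lpcat1 1420293_at. Each of those estimates changed sign in some other fits. The KO and WT arrays did not overlap in the difference between the probe sets in 6 pairs. Neither share was computed over pairs of probe sets of other genes, so whether these genes differ from others in this is not known. Both counts refer to the 9 pairs. In 5 of the 6 pairs without overlap the exact permutation p was 0.0286, which became 0.0514 after Benjamini-Hochberg adjustment over the 9 pairs. It was 0.0571 in the other, Napsa, so no pair passed. The 35 splits allow no exact permutation p below 0.0286, so 5 pairs at that value could not pass after adjustment over 9. The lack of a pass therefore does not show that the probe sets of a gene changed alike. The Lpcat1 pairs also share their brightest probe set. In Lpcat1 the brightest probe set exceeded 1424459_at by 3.05 ± 0.30 in KO lungs, against 2.08 ± 0.07 in WT lungs (SD, n = 3 and 4), the most unequal pair. In Sftpc the difference was 7.23 ± 0.36 on KO and 7.97 ± 0.22 on WT arrays, and in Abca3, for 1425496_at, it was 5.14 ± 0.20 on KO and 4.66 ± 0.09 on WT arrays. The other 2 pairs at the smallest p were those of Lpcat1 with 1420293_at and 1420294_at.

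The calls were then set beside the levels. Of the 7 with a mean of at least 12, 1 fell, at Lpcat1, and of the 11 below that level 4 fell. The level of 12 was chosen after the values were seen. Over all 669 probe sets at or above it, 8.97% passed, 7.32% lower and 1.64% higher, against 9.89% of all probe sets. The groups did not overlap at 32.7% of them, 23.5% lower and 9.27% higher in KO. The median size of the log2 change was 0.095 in that class and 0.12 over all probe sets.

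**Figure D4:**
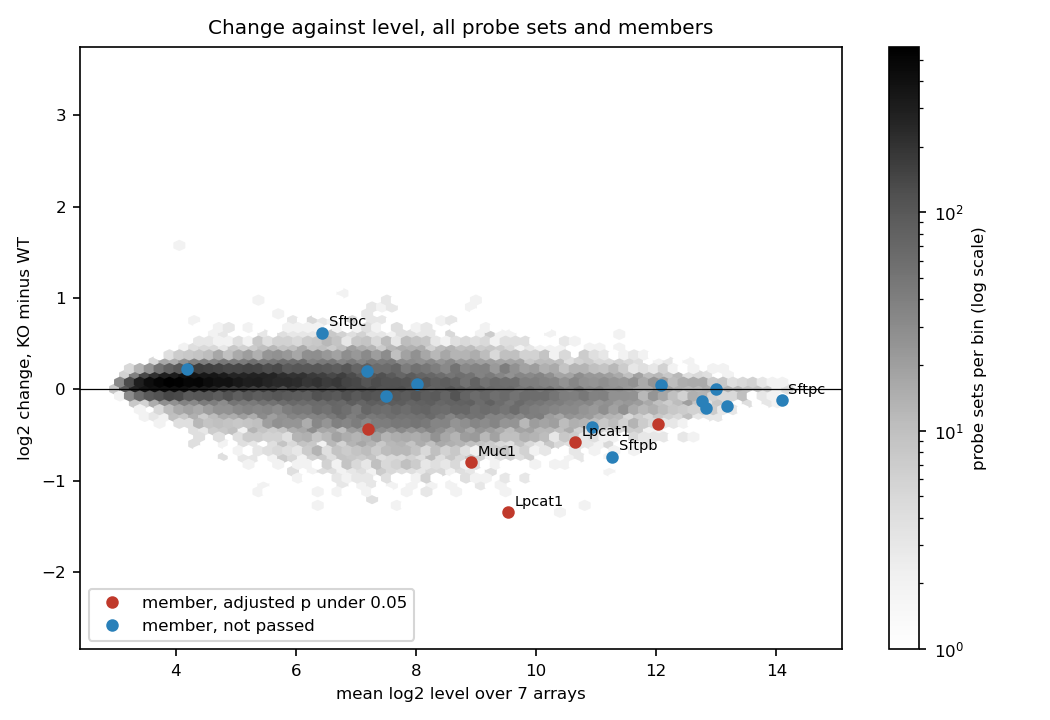
Log2 change, KO minus WT, against the mean log2 level over 7 arrays. Grey shading counts all 45037 probe sets on a log scale and coloured points are the 18 probe sets of the surfactant and type 2 genes. The members reach the far right of the plot, and the largest falls, Lpcat1 and Muc1, sit at levels near 9.

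Individual arrays differed in a pattern shared by several of these genes. KO replicate 2 was the lowest array at 3 of the 5 probe sets that fell and KO replicate 3 at the other 2, and KO replicate 2 held the lowest Sftpb value and the highest value of the dimmer Sftpc probe set. At the other end, WT replicate 4 was the highest array at 6 of the 9 brightest probe sets. It had the smallest beta-actin 3′ minus middle difference, 2.23, but not the smallest of the other control differences. For beta-actin 3′ minus 5′ that was WT replicate 2, at 3.88 against 3.94 in WT replicate 4. For Gapdh 3′ minus middle it was WT replicate 1, at 3.33 against 3.51 in WT replicate 4. WT replicate 4 was also the array that stood apart in sex-linked transcripts. Adding any 1 of the 3 control differences to the limma fit left 0 of the 18 probe sets past the threshold. Over all 45037 probe sets the calls went from 4456 to 0 with beta-actin 3′ minus 5′, 1 with beta-actin 3′ minus middle and 13 with Gapdh. An unadjusted limma p under 0.05 was then found at 2, 2 and 6 of the 18 probe sets, in the same order. Over all 45037 probe sets it was found at 7989, 5099 and 7714. Muc1 was then at -0.32, -0.82 and -0.42, and Lpcat1 at 1424459_at was at -0.92, -1.19 and -0.86. None of the 3 control differences overlapped between the groups, so genotype and RNA quality cannot be told apart by these fits.

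**Figure D5:**
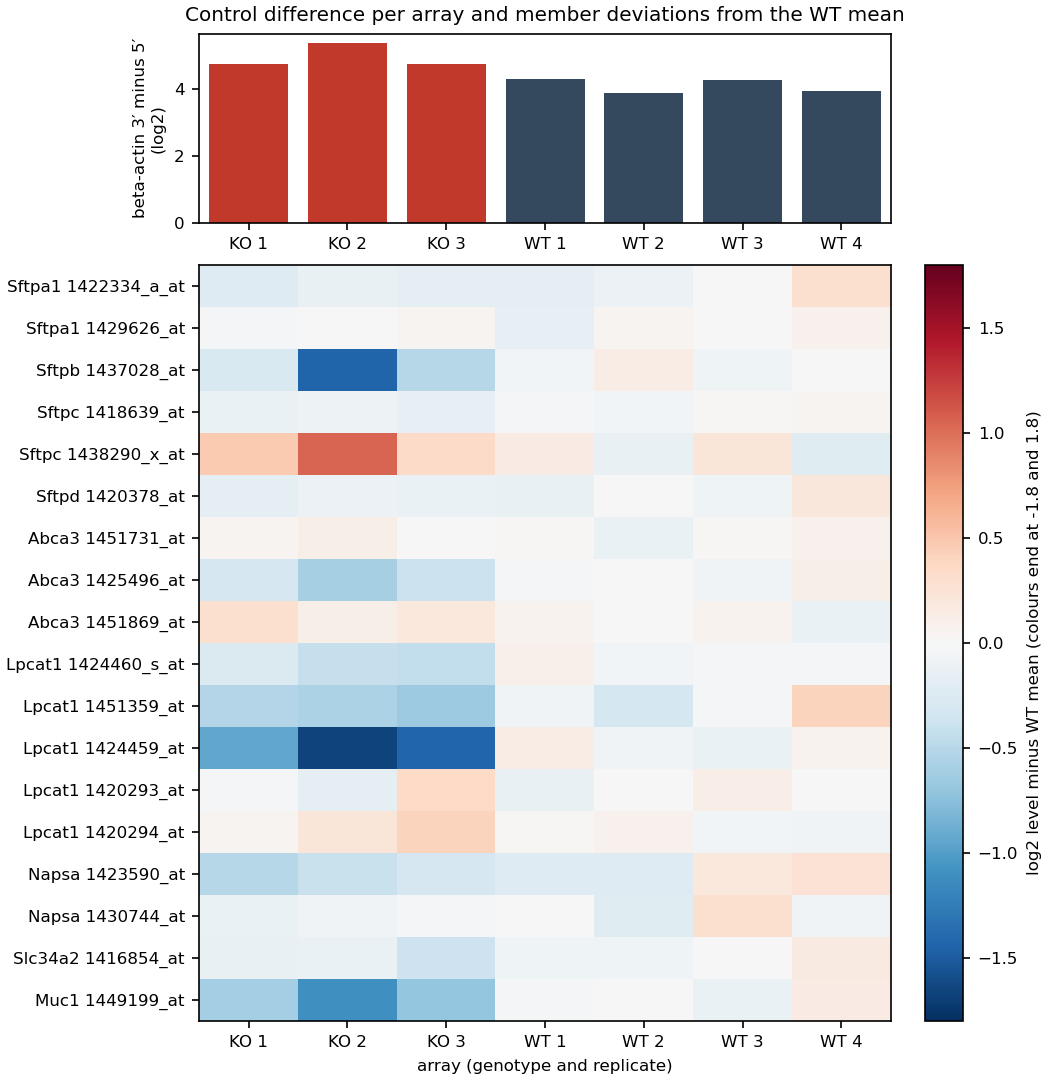
Top, beta-actin 3′ minus 5′ log2 difference on each array, bars from 0, KO in red and WT in dark blue. Bottom, log2 level of each of the 18 probe sets minus its WT mean on the same arrays, blue for lower and red for higher, where KO replicate 2 has both the tallest bar and the lowest Sftpb, Muc1 and Lpcat1 1424459_at values.

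Other genes of type 2 cells also included falls. Each was read at its brightest probe set, and of 18 such genes 5 fell, none rose and the other 13 did not pass, at a median log2 change of -0.22, against 6.52% falling and 4% rising over all genes. Cldn18, a claudin of alveolar tight junctions that type 1 cells also make, fell 1.93-fold, to 9.85, 9.12 and 9.05 in KO lungs, against 10.25, 10.14, 10.33 and 10.43 in WT lungs (adjusted p = 0.0176). Lgi3, a secreted protein gene that lies next to Sftpc on chromosome 14, fell 1.73-fold, to 8.60, 8.21 and 8.55 in KO lungs, against 9.15, 9.20, 9.06 and 9.55 in WT lungs (adjusted p = 0.0124), a call kept whichever array was left out. The complement component Hc fell 1.41-fold, the transcription factor Etv5 1.40-fold and the lysozyme gene Lyz2, which macrophages express strongly too, 1.34-fold. Hc passed in 4 of the 7 fits that left out 1 array, Cldn18 in 4, Lyz2 in 2 and Etv5 in 1. Of the 2 other Lgi3 probe sets, 1 passed as lower (log2 changes -0.38 and 0.14). The other Cldn18 probe set passed as lower (-1.01), and the 2 others of Etv5 did not pass (-0.19 and 0.07). Cxcl15, a chemokine gene and the brightest of this group, read 13.48, 13.36 and 13.25 in KO lungs, against 13.37, 13.56, 13.52 and 13.57 in WT lungs, and did not pass (log2 change -0.14).

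Genes that make, process or clear surfactant moved both ways. There were 2 falls and 2 rises among 20 measured at their brightest probe set, against 6.52% and 4% over all genes, and the median log2 change was -0.05. Of the other 16 genes, 4 passed at another probe set, 3 lower (Elovl1, Ap3b1 and Chka) and 1 higher (Csf2ra). The share of all genes that pass at a probe set other than the brightest was not computed. Pcyt1a, the rate-limiting enzyme of phosphatidylcholine synthesis, fell 1.44-fold to 7.34, 7.15 and 7.24 in KO lungs, against 7.62, 7.87, 7.80 and 7.79 in WT lungs (adjusted p = 0.00798). Hps1, read at an _x_at probe set, whose product takes part in the formation of lysosome-related organelles such as lamellar bodies, rose 1.40-fold to 9.10, 9.37 and 9.18 in KO lungs, against 8.71, 8.77, 8.66 and 8.77 in WT lungs (adjusted p = 0.00884). Both calls were kept whichever array was left out, but the 3 other probe sets of each gene did not pass. Gpam, a glycerol phosphate acyltransferase, fell with a log2 change of -0.27 and Srebf1, a regulator of lipid synthesis, rose with one of 0.23 (adjusted p = 0.0310 and 0.0498), and each passed in 1 of the 7 fits that left out an array. Adgrf5, a receptor that senses the surfactant pool, was at 13.27 to 13.30 in KO and 13.23 to 13.35 in WT lungs, and Scd1, a fatty acid desaturase, had a log2 change of -0.31 (adjusted p = 0.160).

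Regulators of surfactant genes gave 3 falls and 0 rises among 13 at their brightest probe set, against 6.52% and 4% over all genes, at a median log2 change of -0.21. Of the other 10 genes, 4 passed as lower at another probe set. These were Wwtr1 at 2 of 2 others, Sp1 at 1 of 2, Stat3 at 1 of 3 and Nr3c1 at 1 of 5. The share of all genes with such a call was not computed. Cebpa fell 1.51-fold, to 9.51, 9.02 and 9.62 in KO lungs, against 9.93, 10.18, 9.81 and 9.98 in WT lungs (adjusted p = 0.0398). Nfib, a nuclear factor of lung maturation, fell 1.24-fold (adjusted p = 0.0309), and Etv5 is also in this list. Each of the 3 falls passed in only 1 of the 7 fits that left out an array. Those were the fits without KO replicate 3 for Cebpa, without KO replicate 2 for Nfib and without WT replicate 2 for Etv5. Of the 6 other Nfib probe sets, 1 passed as lower, and their log2 changes ran from -0.84 to 0.18. Nkx2-1, the main activator of surfactant genes, was dim at 5.22, 5.10 and 5.45 in KO lungs, against 5.07, 5.31, 5.15 and 5.04 in WT lungs (log2 change 0.11, adjusted p = 0.450). Gata6 read 8.80, 8.83 and 8.36 in KO lungs, against 8.79, 8.91, 9.11 and 8.91 in WT lungs, and did not pass (log2 change -0.27, adjusted p = 0.191).

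Markers of other lung cells were read in the same way, again beside 6.52% falling and 4% rising over all genes. Club cell genes did not pass in any of 7, and the brightest, Scgb1a1, had a log2 change of 0.06 and Cyp2f2 of 0.08. The summed level of that list, as the log2 of the sum of linear values, was 16.17 to 16.35 in KO and 16.19 to 16.28 in WT lungs. Of 11 type 1 cell genes 1 fell, Igfbp2 (1.42-fold, adjusted p = 0.0301), a call kept in 1 of the 7 fits that left out an array, and lost under quantile normalization, cyclic loess and array weights. Ager and Hopx had log2 changes of -0.02 and -0.09 at their brightest probe sets, and -0.62 and -0.53, both of which passed, at their other ones, and Emp2 passed as lower at 1 of its others. Summed type 1 levels were 15.98 to 16.09 in KO and 16.07 to 16.15 in WT lungs. None of 9 alveolar macrophage genes passed, although 8 of the 9 estimates were below 0 with a median of -0.25, among them Mrc1 at -0.57 and Siglecf at -0.48 (Chil3 -0.21, Abcg1 -0.25, summed level 13.44 to 13.85 in KO and 13.71 to 13.96 in WT lungs), nor did any of 4 airway mucous cell genes (Muc5b 0.06, Muc5ac 0.22, summed level 8.89 to 9.41 in KO and 8.83 to 9.22 in WT lungs). Of 9 endothelial genes 3 fell: the junction molecule Pecam1 (2.33-fold, adjusted p = 0.00669), the receptor kinase Tie1 (1.78-fold) and the sialomucin Emcn (1.91-fold). Emcn passed in only 1 of the 7 fits that left out an array and was lost with array weights, whereas Pecam1 and Tie1 passed in all 7. Vwf and Cldn5, the brightest, did not pass (-0.05 and -0.42). All 9 endothelial estimates were below 0, with a median of -0.27. Summed endothelial levels were 13.66 to 13.86 in KO and 13.95 to 14.12 in WT lungs, without overlap. Those of the 9 surfactant and type 2 genes were 15.60 to 15.65 in KO and 15.75 to 15.95 in WT lungs, also without overlap. The same held for the other type 2 genes (15.73 to 15.88 in KO, 15.91 to 16.21 in WT). It held too for the regulators of surfactant genes (13.85 to 13.87 in KO, 14.01 to 14.09 in WT). The summed levels of the genes that make, process or clear surfactant overlapped (15.31 to 15.43 in KO, 15.35 to 15.52 in WT). How often summed levels of other sets of genes do not overlap was not computed. Some list genes were dim. Of the airway mucous cell genes, Spdef averaged 4.99 over the 7 arrays, under the level of 5.47 used as a filter. Agr2 and Muc5ac averaged 5.56 and 5.98, just above it, and Muc5b 8.64. The lack of a pass therefore says little about Spdef, Agr2 and Muc5ac. Among the regulators, Nkx2-1 was also under that level, at 5.19. The part of other cell types in the changes of Muc1 and Lpcat1 was not tested.

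The genes most like those that carried the results were found by the root mean square difference of the 7 values, each gene centred on its own mean, over 18193 genes. For Muc1 these were Tppp3, a tubulin-binding protein of ciliated cells, Timm13, a mitochondrial import protein, and Gse1, at differences of 0.07, 0.07 and 0.08. For the brightest Lpcat1 probe set they were Men1, Timp2 and Pkp4, at 0.03 to 0.04, and for Sftpb they were Eif5a, Glmp and Arhgap1, at 0.06 to 0.12. Likeness over 7 arrays includes the shared difference between the groups.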

How the data were processed

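The authors deposited log2 levels of 45101 probe sets for 7 arrays. The submitters' processing notes list Affymetrix Expression Console with RMA and MAS5 but give no version and no role, so which method made the table is unknown. The log base was taken from the range of the values. Values were used as deposited, to 2 decimals. After 64 control probe sets were set aside, the platform annotation gave 1 gene for 34945 probe sets, several for 932 and none for 9160, and symbols of 34741 were updated by gene identifier from a RefSeq table of GRCm38.p6. The KO and WT groups entered limma 3.58.1 in R 4.3.3 (lmFit, then eBayes) over all 45037 probe sets, with genotype as the only term and no filter on level. P-values were adjusted by Benjamini-Hochberg and adjusted p under 0.05 was the threshold. Intervals are at 95%. Of the 18 probe sets, 17 lie at or above a level of 5.47, the 40th percentile. Single values per array were compared by exact two-sided permutation over 35 splits. The fit was tested on simulated data. For arrays, their number limits the precision, and no counting depth applies. The members, lists and tests were chosen with earlier results of these data known, and the motif words and the bright class after values or sequences were seen. Named genes were all probe sets of the members, list genes that passed, the 2 brightest genes of each list of another cell type, and the 3 genes most like a member. Cxcl15, Adgrf5, Scd1, Nkx2-1, Gata6, Mrc1, Siglecf and list genes that passed at another probe set only lie outside that rule and were chosen after their values were seen. Ear2 and Prdx6 of the lists had no probe set with 1 gene. Shared replicate numbers did not pair the arrays: deviations from group means of same-numbered arrays correlated at 0.0426, -0.107 and 0.048. Alternatives are given in the closing section. Python 3.11.15 and matplotlib 3.10.9 drew the figures.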

Additional observations from a re-analysis of the deposited data

Results flagged for a closer look

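Among 36 sets of 4 WT values tested for 1 array far from the others, 2 had such an array, and chance gives about 1 in 20. Hc was highest in WT replicate 4, at 12.55, against 12.24 to 12.27 in the other WT lungs. Igfbp2 was highest in WT replicate 2, at 9.85, against 9.42 to 9.45 in the other WT lungs.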

How the results depend on the processing

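The number of the 18 surfactant and type 2 probe sets that passed, 5, was 4 to 5 when 1 array was left out and 4 to 6 under further quantile normalization, median centring, cyclic loess, the level filter, a variance trend and array weights. The call lost under quantile normalization, cyclic loess and array weights was Lpcat1 1451359_at, and the one gained with the level filter was a rise of Sftpc 1438290_x_at. The number was 2 with 1 probe set per gene, where 9 were tested. It was 2 with the replicate number as a block (Muc1 and Lpcat1 1424459_at), where all probe sets gave 1322 calls against 4456 and the lists 4 against 15, although the numbers did not pair the arrays. By limma it was 0 with each of the 3 control differences as a covariate (2, 2 and 6 at unadjusted p under 0.05) and 0 in the 5 mice of lowest mouse number, 3 KO and 2 WT (6 at unadjusted p under 0.05), as was the list count. The count over all probe sets was then 0 with beta-actin 3′ minus 5′ (7989 at unadjusted p under 0.05), 1 with 3′ minus middle, 13 with Gapdh and 0 among the 5 mice (8007). It was 2001 with 1 probe set per gene, and 1974 to 4251 when 1 array was left out, lowest without WT replicate 4 and under 1.5 times lower only without KO replicate 1 or 2. The list count was then 6 to 12, at 7 without KO replicate 3, WT replicate 1 or WT replicate 3 and 6 without WT replicate 4. Higher calls made up 35.6% of all calls, 46.5% after quantile normalization and 24.1% after median centring. No pair of probe sets of a gene passed with or without WT replicate 4, where 3 against 3 arrays cannot give an exact permutation p below 0.1. No scaling moved the median of all probe sets by over 0.1.

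Signs turned in 20 of 617 refits of 33 named probe sets. With beta-actin 3′ minus 5′ as covariate Sftpb was 0.29, Sftpc 1438290_x_at -0.21, Sftpd 0.0048, Abca3 1451731_at -0.062 and Cebpa 0.055. With 3′ minus middle Sftpa1 1422334_a_at was 0.053, Sftpd 0.021, Lpcat1 1420293_at -0.28 and 1420294_at -0.091, Slc34a2 0.16 and Emcn 0.0030. With Gapdh Sftpa1 1429626_at was -0.046, Sftpb 0.14 and Abca3 1451731_at -0.058. Sftpa1 1429626_at was -0.026 after median centring and Napsa 1430744_at 0.042 among the 5 mice. When 1 array was left out, Sftpa1 1429626_at ran from -0.043 to 0.033 (below 0 without KO replicate 3 or WT replicate 1), Lpcat1 1420293_at from -0.095 to 0.17 (below 0 without KO replicate 3) and Napsa 1430744_at from -0.14 to 0.023 (above 0 without WT replicate 3). The cause was not tested. None of the 5 member calls turned sign.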
